A study of Parhyale hawaiensis with 10 samples.

Results

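A whole embryo of the amphipod crustacean Parhyale hawaiensis at stage 24 (1 library, a single embryo) was set against developing legs dissected from embryos at stages 25 to 26 (3 libraries), using ATAC-seq peak lists. These were 4 of the 10 libraries of the series. All samples came from the Chicago-F inbred line, with no treatment or mutation named in the labels. Each leg library pooled 30 to 40 legs of the T4 to T8 segments from several embryos, so neither kind of sample resolves cell types and the embryo has no replicate. The peaks of the 4 lists were merged wherever they overlapped or touched, which gave 205967 regions; a region was held by a library that had a peak in it. Of these regions, 49498 (24.0%) were held by the embryo only, 12307 (5.98%) by all 3 leg libraries and not by the embryo, and 36771 (17.9%) by all 4 libraries. The other nuclei libraries (single whole embryos at stages 20 and 23 with 1 library each, and uninjured T4 and T5 legs of adults with 3) and a library of naked adult DNA served to describe these classes and took no part in defining them.

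ATAC-seq cuts DNA with the transposase Tn5, which inserts mainly where nucleosomes are absent, so that peaks mark open chromatin such as active promoters and enhancers. Many enhancers are open only in some tissues and at some stages, whereas promoters of widely used genes tend to be open in most cells. A whole embryo at this stage carries its growing legs together with nervous system, gut, muscle, epidermis and yolk-associated cells, so a region open only in a small tissue is diluted in it. Naked DNA has no nucleosomes, and its peaks mark sequence that Tn5 or the mapping favours. The embryo was lysed with the detergent Igepal, whereas leg nuclei were freed by needle in a buffer that also held Tween-20 and digitonin, then filtered and washed. Tissue, stage and this protocol differed together and cannot be told apart, nor can fewer cells of a type and less open DNA per cell. The lists name no genes, so the labelled tissues could not be checked against markers.

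The deposited lists held 119994 peaks for the stage 24 embryo, against 87308, 77357 and 119487 peaks for embryonic legs 1, 2 and 3. The embryo thus had the longest list, by little over the longest leg list. Its peaks covered 35.1 Mb, against 27.2 ± 5.98 Mb in legs (SD, n = 3). The difference of 25277 peaks from the leg mean gave an exact two-sided permutation p of 0.5 (1 library against 3; the smallest p this design allows is 0.25). Median fold, which is the authors' enrichment of a peak summit over the expected pileup, was 5.79 in the embryo and 5.83, 6.34 and 5.79 in legs 1 to 3, although folds of separate lists are not on a common scale. Read totals are not in the lists. The most frequent expected pileup, solved from fold and p-value and used as a measure of depth, was 0.555 in the embryo and 0.457, 0.394 and 0.526 in legs. The narrowest peak was 200 bp in the embryo and 122 to 133 bp in the 3 leg libraries, and per kb of that width the background was 2.77 in the embryo and 3.44, 3.23 and 4.21 in legs, so the order of depth depends on this scaling. The highest −log10 p was 301.5 in the embryo, against 4756, 3722 and 5804 in legs. By these values the stage 24 list may have been made with other peak calling settings, which would change what embryo-only and leg-only regions are; this was not tested, and it cannot be told apart from tissue and stage.

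In base pairs, leg libraries shared more with each other than with the embryo. The Jaccard index, the base pairs shared by a pair of libraries over those covered by either, was 0.258, 0.252 and 0.284 between the embryo and legs 1, 2 and 3, and 0.436, 0.409 and 0.410 between leg libraries. The 3 embryo pairs all lay below the 3 leg pairs, with a difference of means of −0.153 and an exact one-sided permutation p of 0.25, the smallest possible. Of the embryo's peaks, 41.6%, 39.3% and 51.8% overlapped a peak of legs 1, 2 and 3. Counted by peaks, the contrast depended on the list: for legs 1, 56.0% overlapped the embryo, against 60.3% for legs 2 and 71.8% for legs 3. For legs 2 it was 59.6% in the embryo, against 68.2% in legs 1 and 78.0% in legs 3. Peaks of legs 3 overlapped the embryo in 51.1% of cases, against 52.6% for legs 1 and 50.5% for legs 2, which are shorter lists. Embryonic legs 3 has a list of nearly the embryo's length, which allows a comparison at like list length: regions of the embryo were held by both legs 1 and legs 2 in 32.2% of cases, against 41.3% of the regions of legs 3.

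The embryo recovered most of what leg libraries had in common, but less than another leg library did. Regions shared by legs 2 and 3 were held by the embryo in 70.2% and by legs 1 in 81.8% of cases. For legs 1 and 3 the shares were 69.9% in the embryo and 78.55% in legs 2, and for legs 1 and 2 they were 72.5% in the embryo and 93.4% in legs 3. The embryo's share was lower each time, by 13.7 ± 6.36 percentage points on average (SD over 3 pairs, which share libraries and so give no p). The embryo's own share varied little, at 70.9% ± 1.44 (SD, n = 3 pairs), whereas that of the left-out leg library was highest for the longest leg list and lowest for the shortest. With the same number of peaks taken from each list (77357, the strongest by p-value) the gap was 21.9 points. With peaks of at least 200 bp in every list, which was tried only once the data had been seen, the difference was −7.40 points.

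**Figure D1:**
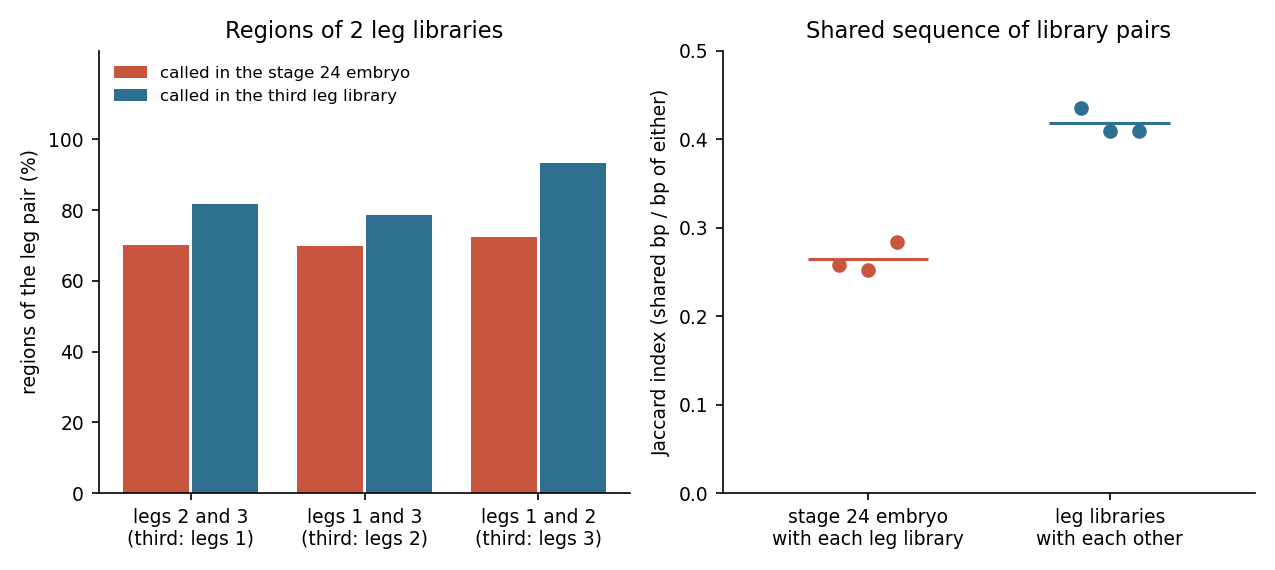
Left, the share of regions held by a pair of embryonic leg libraries (x axis, 3 pairs) that was also held by the stage 24 embryo or by the third leg library, in percent. Right, the Jaccard index of each library pair (points) with the mean (line). The embryo's bars stand at 69.9% to 72.5%, below the leg bar of every pair, and its 3 Jaccard indices (0.252 to 0.284) lie below the 3 leg indices (0.409 to 0.436).

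Regions held by all 3 leg libraries were held by the embryo in 74.9% of 49078 cases (95% Wilson interval 74.5% to 75.3%, counting error only). The share followed the number of leg libraries with a peak: 23.3% of the regions of 1 leg library and 48.8% of those of 2 were held by the embryo. Seen from the embryo, 41.8% of its 118348 regions were in no leg library, 15.6% in 1, 11.5% in 2 and 31.1% in all 3. The stage 24 fold followed the same order, with medians of 5.11, 5.61, 6.13 and 8.19 for regions in 0, 1, 2 and 3 leg libraries. Without regions that overlap a naked DNA peak, 75.5% of 38915 leg regions were held by the embryo, and with such overlap 72.7% of 10163, so naked DNA overlap changed this share by under 3 points.

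**Figure D2:**
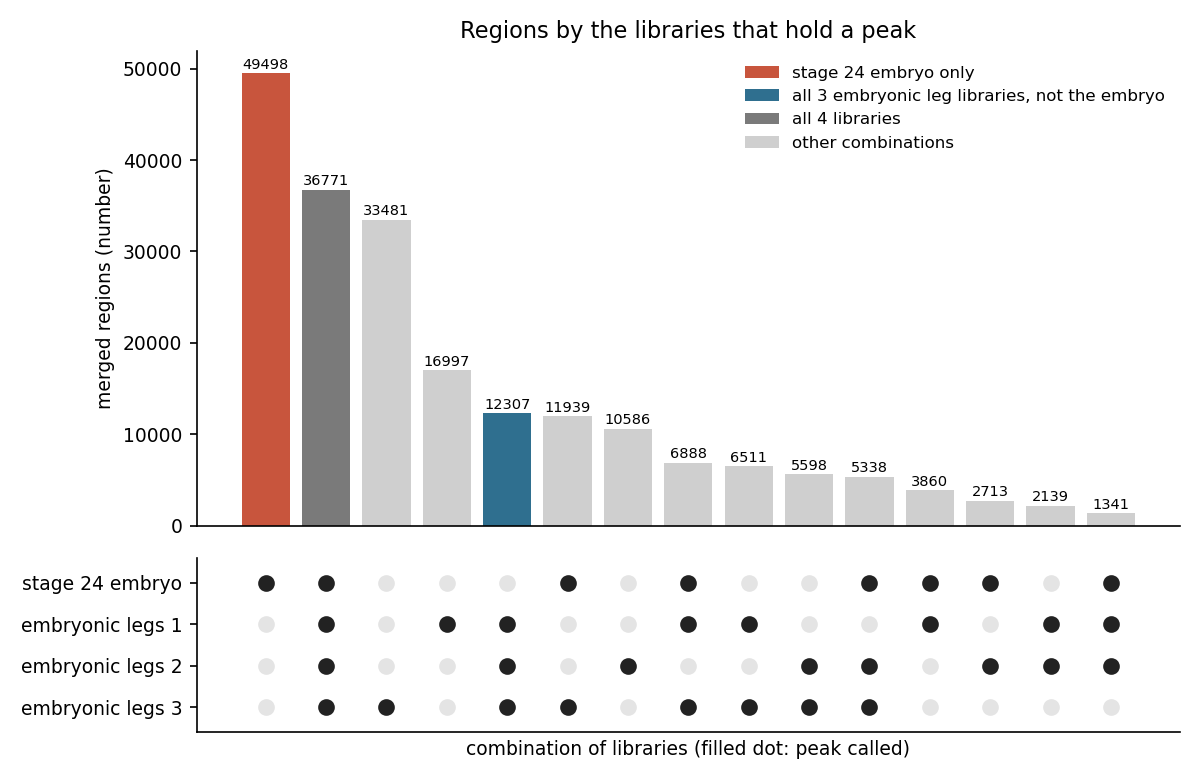
Number of merged regions (bars) for each combination of the 4 libraries that hold a peak (filled dots). The 2 largest sets are regions of the stage 24 embryo alone (49498) and of all 4 libraries (36771); regions of all 3 leg libraries without the embryo number 12307, fewer than those of embryonic legs 3 alone (33481) or legs 1 alone (16997).

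Regions of the embryo only were many, and a larger part of them was strongly called than among regions of a single leg library. The embryo alone held 49498 regions, against 16997, 10586 and 33481 for legs 1, 2 and 3 alone. A q-value of at most 1e-05 was reached by 44.5% of the embryo-only regions, and by 10.5%, 12.5% and 14.6% of those of legs 1, 2 and 3 alone. This difference is beyond the range of the 3 leg libraries. Q-values come from separate peak callings, however, and 1 embryo gives no spread of its own. Over whole lists the shares were 62.7% in the embryo and 59.1%, 63.2% and 56.5% in legs 1, 2 and 3. Regions of legs 1, 2 and 3 alone had median widths of 191, 174 and 185 bp, below the narrowest stage 24 peak of 200 bp. A leg library has 2 replicates in which its regions can be found again and the embryo has none. Neither the counts nor the shares of single-library regions are thus on an equal footing. With a q-value of at most 1e-05 in every list there were 30496 embryo-only and 9189 leg-only regions, and with 77357 peaks from each list 26484 and 14470. These settings also drop weak leg peaks, so the regions counted as embryo-only need not be among the 49498. The ratio of embryo-only to leg-only regions was 4.02 as deposited, 3.32 at the stricter q-value and 1.83 at equal list length. Without legs 2, leg-only regions numbered 18839. With peaks of at least 200 bp in every list the counts were 64830 embryo-only and 6469 leg-only regions, a ratio of 10.0.

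The classes differed in strength. Embryo-only regions had a median fold of 5.11 (quartiles 4.29 and 6.06) in the embryo, and 1538 of them (3.11%) reached a fold of 10. Leg-only regions had a median fold of 6.19, 6.35 and 7.05 in legs 1, 2 and 3, and in 52.0% of them all 3 libraries reached a q-value of at most 1e-05. Regions of all 4 libraries had medians of 8.19 in the embryo and 9.37, 9.15 and 11.2 in legs, and were the widest at a median of 452 bp, against 227 bp for embryo-only and 351 bp for leg-only regions. A region merged from peaks of several libraries is by construction at least as wide as each of them.

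Strength and sharing rose together. Among the 10% of the embryo's regions with the lowest fold (up to 3.86), 66.7% were in no leg library and 10.4% in all 3. Among the 10% with the highest fold (11.5 to 39.1) it was 6.62% and 78.9%. Of the leg regions, 48.1% of the weakest 10% and 94.0% of the strongest 10% (mean fold of 18.4 or more) were held by the embryo. The share of embryo regions overlapping naked DNA was 16.6% in the weakest and 20.1% in the strongest 10%. Both legs 1 and legs 2 held 11.3% of the embryo's weakest and 79.6% of its strongest 10%, against 4.91% and 94.1% of those of legs 3. By these shares, strong regions of the embryo were found again in legs 1 and 2 less often than strong regions of legs 3. Its weak ones were found again more often than those of legs 3, with 1 library on each side and no test. For the shorter lists of legs 1 and 2, both other leg libraries held 13.5% and 20.6% of the weakest 10%, above the embryo's 11.3%. In their strongest 10% it was 97.4% and 96.95%. These shares are of other leg pairs.

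**Figure D3:**
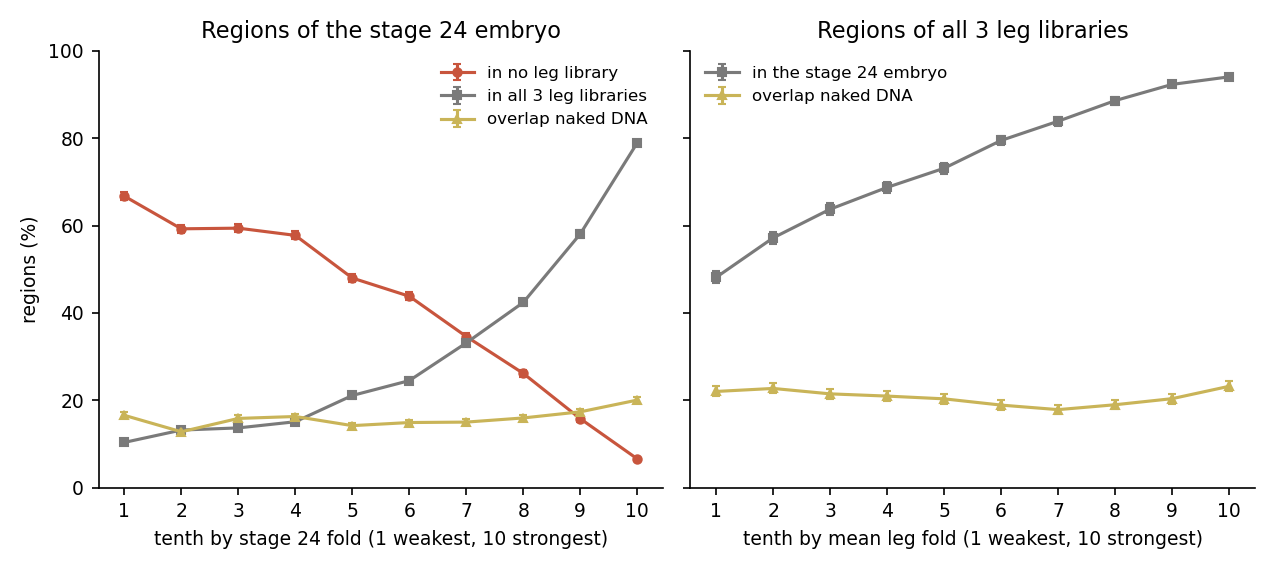
Left, regions of the stage 24 embryo in 10 groups of rising stage 24 fold (x axis) and the percentage of each group in no leg library, in all 3 leg libraries and overlapping naked DNA. Right, regions of all 3 leg libraries in 10 groups of rising mean leg fold and the percentage held by the embryo and overlapping naked DNA; bars are 95% Wilson intervals. The share in no leg library is 6.62% in the strongest group, against 66.7% in the weakest.

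Within the 36771 regions of all 4 libraries, the ranking of regions by fold was alike among legs and less so between embryo and legs. Spearman's rho across these regions was 0.570, 0.551 and 0.599 between the embryo and legs 1, 2 and 3, and 0.826, 0.839 and 0.838 between leg libraries. These are descriptions across regions of the same genome, which share sequence composition and mappability. Of the 3677 regions in the embryo's strongest 10%, between 47.9% and 50.0% were also in the strongest 10% of each leg library, whereas pairs of leg libraries shared 72.1% to 73.0%. In all 3 leg libraries at once it was 35.8%, or 1317 regions.

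The other nuclei libraries described the classes at other stages. Embryo-only regions were called elsewhere less often than regions as a whole: 9.06% (95% Wilson interval 8.81% to 9.32%) had a peak at stage 20 and 8.30% (8.06% to 8.54%) at stage 23, and 77.9% had a peak in none of the 5 other nuclei libraries. Over all 205967 regions the shares were 18.9%, 18.4% and 56.1%. Leg-only regions were called in 22.8% of cases at stage 20 and 23.9% at stage 23. Regions of all 4 libraries reached 47.8% and 50.9% at these stages. At stage 20 or 23, 15.5% of embryo-only and 33.8% of leg-only regions were called, beside 27.7% of all regions, a difference between the classes of −18.3 percentage points (95% Newcombe interval −19.2 to −17.4, counting error only). With peaks that overlap naked DNA removed before merging, the difference was −10.5 points, at 13.4% and 23.9%, and on scaffolds whose peaks reach 1 Mb it was −11.2 points. Of the regions of legs 1, 2 and 3 alone, 11.9%, 10.7% and 10.8% were called at stage 20 or 23, below the 15.5% of embryo-only regions. These leg regions were by rule missing from 2 replicate libraries, whereas embryo-only regions had no replicate to be missing from. The 2 kinds of set are thus not alike, and no direction is drawn from them. Stages 20 and 23 had fewer strong peaks than stage 24, since 27.0% and 27.4% of their peaks reached a q-value of at most 1e-05, against 62.7% at stage 24. The part of this in the result was not tested.

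In adult legs, leg-only regions were called far more often than embryo-only regions, whereas regions of a single leg library were called only somewhat more often. Embryo-only regions were called in 5.63%, 3.27% and 3.43% of cases in adult legs 1, 2 and 3, leg-only regions in 60.03%, 38.8% and 34.9%, and regions of all 4 libraries in 72.2%, 49.5% and 49.6%. Over all regions it was 27.2%, 17.1% and 16.6%. The 3 libraries thus put the embryo-only share at 4.11% ± 1.32, the leg-only share at 44.6% ± 13.5 and the share of all 4 at 57.1% ± 13.1 (SD, n = 3 adult libraries), and every adult library kept the same order. In any adult leg library the shares were 9.67% of embryo-only and 67.7% of leg-only regions, beside 33.0% of all regions, and the classes differed by −58.0 points (95% Newcombe interval −58.9 to −57.15). It lay between −60.5 and −46.9 points under the alternatives of processing that were run, left-out leg libraries included. In the weakest 10% of each class 6.71% of embryo-only and 50.0% of leg-only regions were in an adult leg library, and in the strongest 10% it was 14.4% and 90.5%. Leg-only regions had to be found in 3 lists and embryo-only regions in 1. Regions of legs 1, 2 and 3 alone were in an adult leg library in 15.0%, 19.6% and 14.95% of cases, against 9.67% of embryo-only regions. These leg regions were by rule missing from 2 replicate libraries, whereas embryo-only regions had no replicate to be missing from. How much of the gap of −58.0 points goes with the number of lists cannot be read from these sets.

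**Figure D4:**
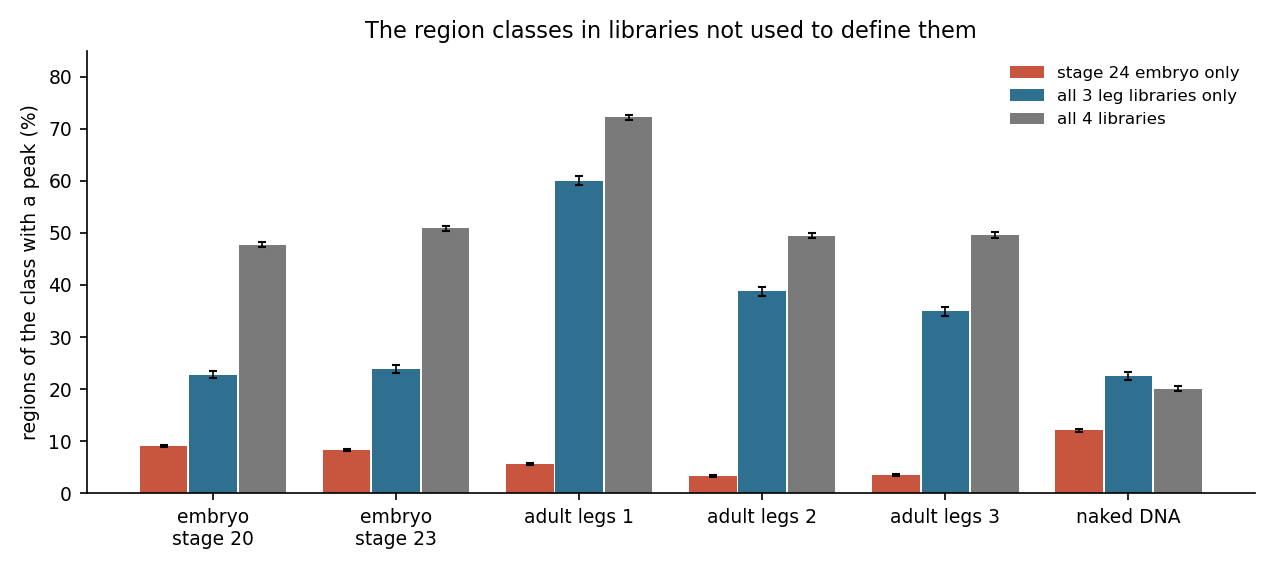
Percentage of each region class with a peak in the embryos at stages 20 and 23, in adult legs 1 to 3 and in naked DNA; error bars are 95% Wilson intervals. In each of the 3 adult leg libraries embryo-only regions stay at 3.27% to 5.63% while leg-only regions reach 34.9% to 60.03%, and in naked DNA the shares are 12.1% and 22.5%.

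The embryo-only regions with the highest folds lay on short scaffolds, as did most of the strongest leg-only regions. The first 6 over all scaffolds, with stage 24 folds of 24.8 to 30.1, all lay on scaffolds with no peak beyond 10 kb, and none overlapped naked DNA or had a peak in another nuclei library; the first was phaw_50.203573 at 81 to 285 with a fold of 30.1. Scaffolds whose peaks do not reach 1 Mb held 11.8% of all embryo-only regions, and 38 of the 45 with a fold of 20 or more. They held 16.3% of all leg-only regions, and 155 of the 235 with a mean leg fold of 20 or more. On scaffolds whose peaks reach 1 Mb and without naked DNA overlap, the 6 strongest embryo-only regions had folds of 20.4 to 24.1. The region at phaw_50.283861a:2020185-2020467 led them with a fold of 24.1 at stage 24 and 22.2 at stage 20, and no peak at stage 23, in embryonic legs or in adult legs. On the same scaffold, the region at 1176225 to 1176671 had folds of 10.3, 7.12 and 20.4 at stages 20, 23 and 24. The regions at phaw_50.000203a:11989050-11989343 (fold 22.6), phaw_50.283823a:1232636-1232896 (20.9) and phaw_50.282275b:531143-531426 (20.8) had a peak in no nuclei library but that of stage 24. The other one, phaw_50.283868d:6872837-6873243, had folds of 4.99 at stage 20 and 22.03 at stage 24. The files pair these positions with no gene.

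The leg-only regions with the highest folds were held by every library except that of stage 24. The first 6 had mean leg folds of 43.55 to 63.1; all 6 overlapped naked DNA, all 6 had peaks in the 3 adult leg libraries and at stages 20 and 23, and 5 lay on scaffolds with no peak beyond 10 kb. At phaw_50.070906:1-583 the folds were 62.1, 62.1 and 65.1 in legs 1, 2 and 3, 38.8 and 23.2 at stages 20 and 23, 31.6, 50.15 and 32.6 in adult legs and 33.5 in naked DNA, while the stage 24 list had no peak. In all, 1058 of the 12307 leg-only regions were held by the 5 other nuclei libraries as well; 78.3% of them overlapped naked DNA and 64.8% lay on scaffolds whose peaks do not reach 1 Mb, against 17.3% and 11.7% of the other 11249. Regions held by 8 of the 9 nuclei libraries and missing from the other numbered 1050 for stage 24, 162, 150 and 69 for embryonic legs 1, 2 and 3, 2400 and 1302 for stages 20 and 23, and 183, 823 and 742 for adult legs 1, 2 and 3. Those missing at stage 24 lay on scaffolds whose peaks do not reach 1 Mb in 64.8% of cases, against 37.0%, 37.3% and 44.9% of those missing from legs 1, 2 and 3 and 6.46% and 11.5% of those missing at stages 20 and 23. For adult legs 1, 2 and 3 it was 34.4%, 11.1% and 15.0%. Naked DNA overlap was not particular to those missing at stage 24. It was 77.9% for stage 24, and 59.3%, 74.0% and 88.4% for embryonic legs 1, 2 and 3. For adult legs 1, 2 and 3 it was 78.1%, 22.5% and 37.6%, and for stages 20 and 23 16.75% and 26.6%. Of the 8294 regions held by all 9 nuclei libraries, 41.3% overlapped naked DNA. Of the 62 regions whose −log10 p exceeded 301.5 in all 3 leg libraries, 60 had a stage 24 peak. Why the stage 24 list lacks the 1050 regions was not tested.

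Strong leg-only regions elsewhere were also present in adult legs, as were most leg-only regions. On scaffolds whose peaks reach 1 Mb and without naked DNA overlap, the 6 strongest had mean leg folds of 28.2 to 34.3, and 6 of 6 were called in an adult leg library. Of all leg-only regions without naked DNA overlap 63.0% were so called, and of the strongest 10% of leg-only regions 90.5%. At phaw_50.283866:4393098-4393637 the folds were 24.15, 27.5 and 35.1 in embryonic legs and 13.6, 20.7 and 18.2 in adult legs, with no peak in any of the 3 whole embryos. It was thus called in all 6 leg libraries and in no embryo. At phaw_50.000214f:2272827-2273211 the folds were 31.1, 27.4 and 26.2 in embryonic legs and 40.2, 26.4 and 20.95 in adult legs, and 10.5 at stage 23. The region at phaw_50.000203b:4794785-4794941 (34.3 ± 2.54, SD, n = 3 leg libraries) was only 157 bp wide, narrower than any peak of the stage 24 list. Among leg-only regions, 30 of the 1058 and 783 of the other 11249 were narrower than 200 bp.

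Regions of all 4 libraries with the highest folds were held by almost every library. Of the first 6, 5 had peaks in all 3 adult leg libraries and 4 overlapped naked DNA; at phaw_50.283743b:2468139-2468613 the fold was 34.8 at stage 24, 55.5, 56.0 and 57.3 in embryonic legs and 30.2 in naked DNA. On scaffolds whose peaks reach 1 Mb and without naked DNA overlap, all 6 were held by all 9 nuclei libraries. Of all 36771 regions of the class, 8229 were held by the 5 other nuclei libraries as well. All 3 adult leg libraries held 38.7% of the class, and 20.1% overlapped naked DNA. The named regions were picked by fold, so their counts do not stand for the class. The first of those on scaffolds whose peaks reach 1 Mb was phaw_50.283829a:12770122-12770517. It had folds of 15.0, 13.2 and 26.7 at stages 20, 23 and 24, of 35.35, 34.2 and 37.4 in embryonic legs and of 28.9, 23.5 and 18.3 in adult legs.

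Naked DNA overlap was less frequent in the embryo. Of its peaks, 15.6% overlapped a naked DNA peak, against 19.5%, 18.75% and 17.1% in legs 1, 2 and 3, which gave 0.25 in the exact two-sided permutation test, its lowest attainable p. By class, 12.1% of embryo-only, 22.5% of leg-only and 20.1% of all-4 regions overlapped it, beside 16.4% of all 205967 regions and 17.75%, 16.2% and 13.3% of the regions of legs 1, 2 and 3 alone. The difference of embryo-only from leg-only regions was −10.4 points (95% Newcombe interval −11.2 to −9.65), and −4.85 points on scaffolds whose peaks reach 1 Mb, at 11.2% and 16.1%. Leaving these regions out took away 5983 embryo-only, 2772 leg-only and 7391 all-4 regions. The 43515, 9535 and 29380 that remained were 25.3%, 5.53% and 17.1% of the 172286 regions without naked DNA overlap, with a ratio of embryo-only to leg-only regions of 4.56.

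Leg-only regions lay near regions of all 4 libraries, and embryo-only regions farther from them. Scaffolds whose peaks reach 1 Mb held 43652 embryo-only (23.7%), 10300 leg-only (5.6%) and 33614 all-4 regions (18.3%) among 183940. There the median distance to the nearest region of all 4 libraries was 38.6 kb for embryo-only and 10.8 kb for leg-only regions, and 22.4% and 47.4% lay within 10 kb. Regions of all 4 libraries had a median of 11.1 kb to the nearest other region of that class. Embryo-only regions with a q-value of at most 1e-05 had a median of 28.8 kb, and regions held by legs 1, 2 or 3 alone had 32.7, 25.8 and 32.0 kb. The distance of all embryo-only regions was thus above the range of regions called in a single leg library. That of the strongly called embryo-only regions lay within this range, but the leg regions were taken at any q-value. No test was run.

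Windows of 100 kb on these scaffolds that held at least 1 region were then counted. Windows without a region of all 4 libraries held 1.71 embryo-only and 0.163 leg-only regions on average (11359 windows), and windows with 10 or more held 2.55 and 1.95 (211 windows). Per leg-only region there were 10.5 embryo-only regions in the first set and 1.31 in the second. Embryo-only regions with a q-value of at most 1e-05 numbered 0.642 and 1.70 per window in these sets. Regions of legs 1, 2 and 3 alone, taken at any q-value, numbered 0.52, 0.289 and 1.06 in the first set and 0.664, 0.564 and 1.57 in the second. Without naked DNA overlap the means were 1.50 and 2.42 embryo-only and 0.119 and 1.79 leg-only regions. Across the 20 scaffolds with the most regions, the embryo-only share ranged between 14.0% (phaw_50.015400a) and 29.8% (phaw_50.282695a) and the leg-only share between 4.40% and 8.47%. Scaffolds with more regions per Mb had a lower embryo-only share (Spearman's rho −0.520) and a higher leg-only share (0.620), a description over 20 scaffolds that differ in length.

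The windows with the most embryo-only and the most leg-only regions were picked by these counts, which were not tested. The window with the most embryo-only regions, at 13.5 to 13.6 Mb of phaw_50.283829a, held 14 of them, with stage 24 folds of 3.79 to 13.9, and neither a leg-only region nor one of all 4 libraries. The strongest was phaw_50.283829a:13557416-13557741, and none of the 14 was called in an adult leg library. At both stages 20 and 23 the same 2 of the 14 were called, at 13508062 to 13508332 and at 13585554 to 13585961, and 3 of the 14 overlapped naked DNA. Among all embryo-only regions, 9.67% were in an adult leg library and 12.1% overlapped naked DNA. At stage 20 or 23 it was 15.5%, and at both stages 1.88%. Windows at 17.1 to 17.2 Mb of phaw_50.015400b and at 1.4 to 1.5 Mb of phaw_50.282695a held 13 embryo-only regions each; the first also held 2 leg-only regions and the other held 1.

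On phaw_50.000214e the window at 1.4 to 1.5 Mb had the most leg-only regions, 11, beside 4 embryo-only regions and 4 of all 4 libraries. Of the 11, 7 were called in an adult leg library, none at stage 20 or 23, and 1 overlapped naked DNA. Among all leg-only regions these shares were 67.7%, 33.8% and 22.5%. The window's strongest leg-only region, at 1432264 to 1432650, had folds of 7.70, 10.9 and 13.55 in legs 1, 2 and 3 and was called in all 3 adult leg libraries. The region of all 4 libraries at 1472572 to 1473308 had a fold of 5.06 in the embryo and of 16.3, 13.6 and 20.2 in legs. On phaw_50.283815a the window at 1.6 to 1.7 Mb and on phaw_50.283815b the one at 4.2 to 4.3 Mb came next, with 9 each. At least 5 embryo-only regions lay in 1835 of the 40739 windows with a region over all scaffolds, short ones included, and at least 5 leg-only regions in 152. At least 10 embryo-only regions lay in 35 of these windows, and at least 10 leg-only regions in 1.

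**Figure D5:**
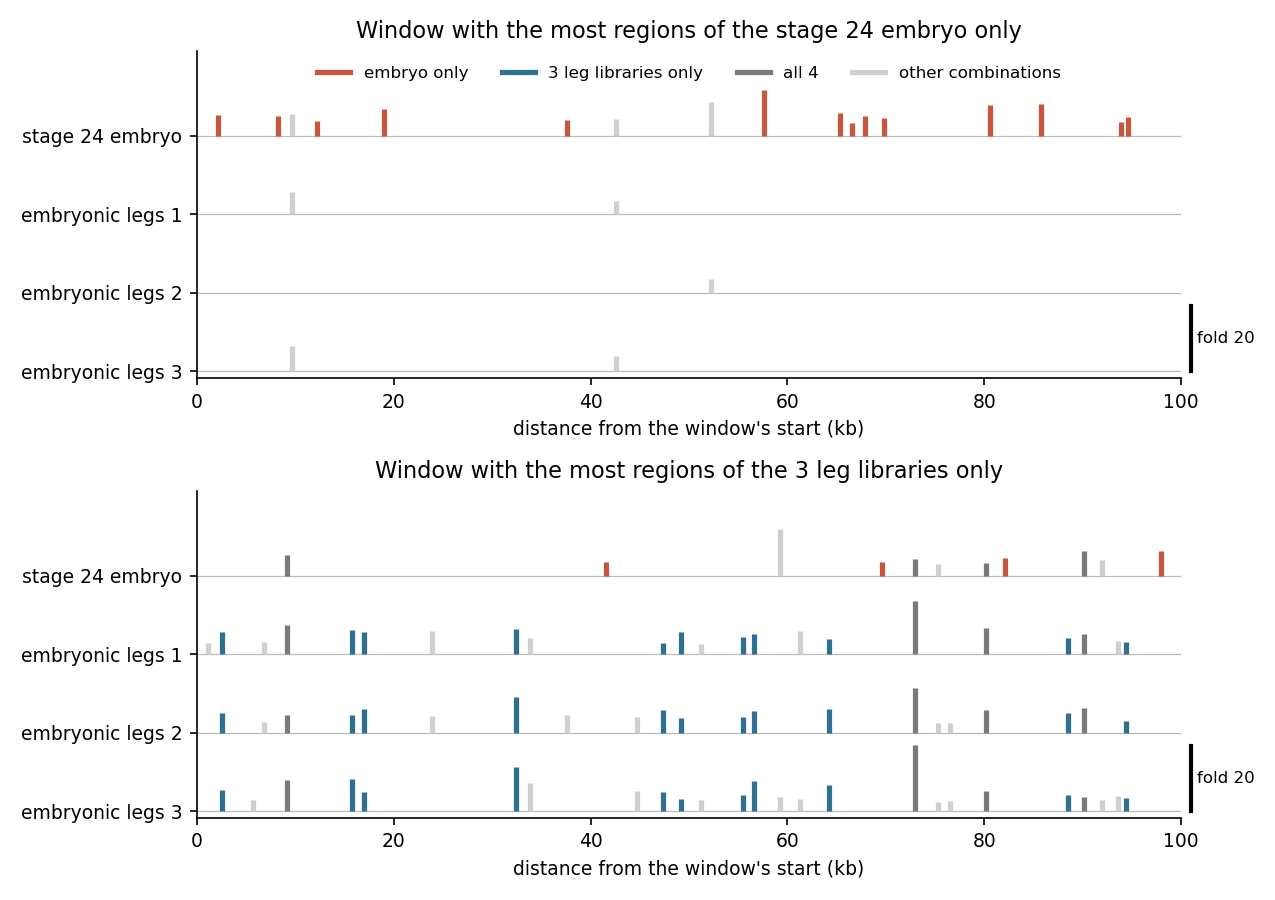
The 100 kb window with the most embryo-only regions (top) and the one with the most leg-only regions (bottom). Each vertical line is a region at its distance from the window's start (kb), drawn for each library that holds a peak there, with a height that gives the fold (scale bar, fold 20). The top window holds 14 embryo-only regions and no leg-only region, the bottom one 11 leg-only and 4 embryo-only regions.

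Leg regions called at earlier stages were more often held by the embryo. Leg regions that had a peak at stages 20 and 23 were held at stage 24 in 88.7% of 14101 cases (95% Wilson interval 88.2% to 89.2%), and those with a peak at neither stage in 61.5% of 21152 (60.8% to 62.1%). Those held by all 3 adult leg libraries were held at stage 24 in 82.9% of 17163 cases and those held by none of them in 67.9% of 12376. Counted over the 5 other nuclei libraries, the share at stage 24 was 58.7% for leg regions in none of them and 88.6% for leg regions in all 5. The reverse view was steeper: of the embryo's 58262 regions found in none of the 5 libraries, 8.12% were in all 3 leg libraries, and of its 8760 regions found in all 5, 93.9% were. The part of peak strength in these shares was not tested.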

How the data were processed

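Only peak lists were analysed; read totals are not in them. Per the submitters' processing notes the tools were MACS2 2.2.7.1, Picard, bedtools 2.31.1, Bowtie2 2.5.4 and SAMtools 1.21, without role or order. For the genome build, control library and threshold, the sources used here state nothing. The authors deposited 1 list per library with a fold (ratio) of each summit, a −log10 p-value and q-value, and a display score, which was not used. No list went below a −log10 q of 1.3, a q-value of 0.05.

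Rows with the same start and end were counted as 1 peak. Peaks were merged where they overlapped by 1 bp or touched, positions are counted from 1, and a region takes the highest fold of a library's peaks in it. Named regions are the 6 strongest of each class (stage 24 fold, mean leg fold or, for all 4 libraries, the mean of both), over all scaffolds and among those on the 158 scaffolds whose peaks reach 1 Mb without naked DNA overlap; windows are the 3 with most regions. The members and lists were chosen with earlier results of these data known. Library values were compared by exact permutation of the 4 libraries; regions are not replicates, so shares carry 95% Wilson or Newcombe intervals, covering counting error only. The labels do not say whether the leg pools came from separate animals, so the spread may be technical. Expected pileups were solved within 0.002 of the deposited −log10 p, or in proportion where that exceeds 10. Counts were checked against bedtools 2.31.1 and the scripts were tested on simulated data. Alternatives were a stricter q-value, equal list lengths, fixed 200 bp peaks, removal of naked DNA overlap, long scaffolds, 50% overlap, merging over 9 libraries, leaving out each leg library and, added after seeing the data, peaks of at least 200 bp and long scaffolds without naked DNA overlap. Python 3.11.15, numpy 2.4.6, pandas 2.3.3 and scipy 1.17.1 were used.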

Additional observations from a re-analysis of the deposited data

How the results depend on the processing

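Of 98 values under 12 alternative settings, 27 moved, and none of the differences changed direction. Class counts have no direction that could change. The other 71 were class counts within 1.5 times the deposited one, shares within its interval or spread, or tested differences (peak number, Jaccard index) that kept their direction and missed the threshold, whatever their size. A q-value of at most 1e-05 gave 30496 embryo-only regions, and equal list lengths gave 26484 and a difference of −21.9 points in leg-pair regions. With peaks of at least 200 bp in every list, a setting chosen after seeing the data that removes narrow peaks of all nuclei lists but that of stage 24, leg-only regions numbered 6469, the difference in peaks was 58924 and that in leg-pair regions −7.40 points; the naked DNA difference was −17.1 points, that of stages 20 or 23 −25.3 and that of adult legs −60.5. At a q-value of at most 1e-05 these differences were −7.83, −14.6 and −54.2; on scaffolds whose peaks reach 1 Mb −4.85, −11.2 and −55.1. The difference for stages 20 or 23 was −10.5 and for adult legs −54.6 without peaks overlapping naked DNA, −7.73 and −53.5 with both restrictions (chosen after seeing the data), and for stages 20 or 23 −16.6 at equal list length and −20.03 with an overlap of at least 50%. That overlap changes no class, because each peak lies whole in its region. Without 1 leg library, embryo-only regions numbered 52313 to 61749, leg-only regions 14438 to 18839 (18839 without legs 2) and regions of all 4 libraries 38045 to 43660; the difference in peaks was 16596 to 37662, in the Jaccard index −0.181 to −0.138, in naked DNA −10.2 to −7.54, in stages 20 or 23 −14.8 to −12.7 and in adult legs −52.1 to −46.9 points. Fewer lists to agree give more regions by construction; otherwise the cause was not tested. No paired analysis was possible because the stage 24 embryo is a single library that shares no replicate number with the legs. Equal list length gives no difference in peak number by construction. Depth limits weak regions most: a region under the threshold in a list cannot be seen.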
